A study of Mus musculus with 6 samples.

Results

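The miR-219 and miR-338 rows of the adult mouse brain miRNA tables were examined across wild-type and Adar2-/- animals. Rows were chosen by their name alone, as every row named miR-219 or miR-338 in any copy or arm, which gave 5 of the 1055 miRNA rows. These were miR-219-5p, miR-219-3p, miR-219-3p*, miR-338-5p and miR-338-3p. Of these, 4 were among the 399 rows with at least 100 reads in every library that entered the count test. The row miR-219-3p* fell under that minimum and is given by its reads only.

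ADAR2 is an enzyme that changes adenosine to inosine in double-stranded RNA, and the series asked how its loss alters the sequence and abundance of mature miRNAs in the brain. Small RNAs of 19 to 25 nucleotides were sequenced from whole brains of 3 wild-type and 3 Adar2-/- female siblings of the 129SV strain, killed at 5.5 months. Both genotypes carried the pre-edited Gria2 R/R allele, which rescues the early lethality of ADAR2 loss, so the wild-type animals differ from an ordinary mouse at Gria2. The tables hold mature miRNA reads, so the Adar2 transcript could not be used here to check the genotype labels.

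A mature miRNA is cut from one arm of a hairpin precursor and guides an Argonaute protein to messenger RNAs that pair with its seed. The 5p and 3p names mark the 2 arms of a hairpin, of which one is often the guide and the other, the passenger, is mostly degraded. In the central nervous system, miR-219 and miR-338 are best known from oligodendrocytes, the cells that make myelin, where both promote the step from precursor to myelinating cell. In whole-brain RNA a lower level can come from fewer cells of a type or from less RNA per cell, and these cannot be told apart.

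The 3 rows with a RefSeq mature sequence are shown because the arms on which the results turn differ in seed and in first base. Capitals mark the seed, bases 2 to 8 from the 5′ end, and the sequences were placed on the NCBIM37 build.

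miR-219-5p: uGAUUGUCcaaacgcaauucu

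miR-338-3p: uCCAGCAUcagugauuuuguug

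miR-338-5p: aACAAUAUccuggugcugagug

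The 3 seeds differ from one another. Among the 1679 mature mouse names searched, 0 others shared the seed of miR-219-5p, of miR-338-3p or of miR-338-5p. The sequence of miR-219-5p is present in 2 hairpins, both on the minus strand, at chr17:34161997-34162017 in Mir219-1 and at chr2:29701209-29701229 in Mir219-2, so its reads cannot be assigned to either. Neither hairpin overlapped a protein-coding gene. The nearest gene was Ring1, 303 bp away on the same strand, for Mir219-1 and Urm1, 629 bp away on the opposite strand, for Mir219-2.

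Mir338 lies within Aatk at chr11:119876079-119876176, on the same minus strand, and overlaps 0 Aatk exons, which places it in an intron. Its 98-base hairpin is shown with both mature arms in capitals, miR-338-5p first and miR-338-3p second, because reads of both arms were abundant.

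Mir338: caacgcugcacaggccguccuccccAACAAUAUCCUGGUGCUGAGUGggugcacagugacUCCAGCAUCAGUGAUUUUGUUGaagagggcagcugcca

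Mapped miRNA reads per library ranged from 12449633 in wild-type replicate 1 to 23935544 in Adar2-/- replicate 3. Levels are given as reads per 1000000 mapped miRNA reads (RPM), and wild-type replicate 1 stood apart in several of them. It held 3294 RPM of miR-375, a miRNA of pituitary and other endocrine cells, against 42.9 to 113 RPM in the other 5 libraries. The rest of the pituitary list did not set it apart in this way. For miR-7a it held 2976 RPM against 3585 RPM in Adar2-/- replicate 3, and for miR-7b 1189 against 1074 RPM. The summed pituitary list (miR-375, miR-7a and miR-7b, with all 3 detected) ranged from 1289 to 7459 RPM in wild type and from 1557 to 4714 RPM in Adar2-/-. In Adar2-/- replicate 3 the pineal and sensory list (miR-183, miR-96 and miR-182) was lowest, at 19158 RPM against 108156 to 155374 RPM in wild type and 89664 and 186903 RPM in Adar2-/- replicates 2 and 1. The part of dissection or of depth in the values that follow was not tested.

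The most read row was miR-219-3p. It stood at 1342, 890 and 627 RPM in wild-type replicates 1, 2 and 3 and at 963, 744 and 794 RPM in Adar2-/- replicates 1, 2 and 3. The genotypes overlapped, with the highest and the lowest level both in wild type. In rank order of all 1055 rows it lay between 67 and 96.

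The other arm by name, miR-219-5p, is the member usually treated as the guide. Its levels were 73.0, 186 and 163 RPM in wild type and 139, 158 and 189 RPM in Adar2-/-, in the same order of replicates. Wild-type replicate 1 was the single low library, and the other 5 overlapped. From 3.86 to 18.4 reads of miR-219-3p were counted per read of miR-219-5p, with 18.4 in wild-type replicate 1 and at most 6.94 elsewhere.

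The guide arm miR-338-3p stood at 211, 387 and 385 RPM in wild type and at 237, 441 and 519 RPM in Adar2-/-. In both genotypes replicate 1 was the low library, and the highest levels were in Adar2-/- replicates 2 and 3. Its partner miR-338-5p was less abundant, at 156, 99.9 and 117 RPM in wild type and 115, 106 and 100 RPM in Adar2-/-. Here wild-type replicate 1 was the high library and the genotypes overlapped. The ratio of miR-338-3p to miR-338-5p reads ranged from 1.35 in wild-type replicate 1 to 5.17 in Adar2-/- replicate 3, so miR-338-3p was the more abundant arm in all 6 libraries.

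The star row miR-219-3p* was nearly unread. It had 9, 16 and 14 reads in wild type and 21, 17 and 25 reads in Adar2-/-, or 0.72, 0.70 and 0.60 RPM against 1.13, 0.72 and 1.04 RPM. The lowest Adar2-/- value lay between the wild-type ones, and the difference of means missed the threshold (two-sided exact permutation test, p = 0.2, with 0.1 the smallest p that 3 against 3 allows).

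**Figure D1:**
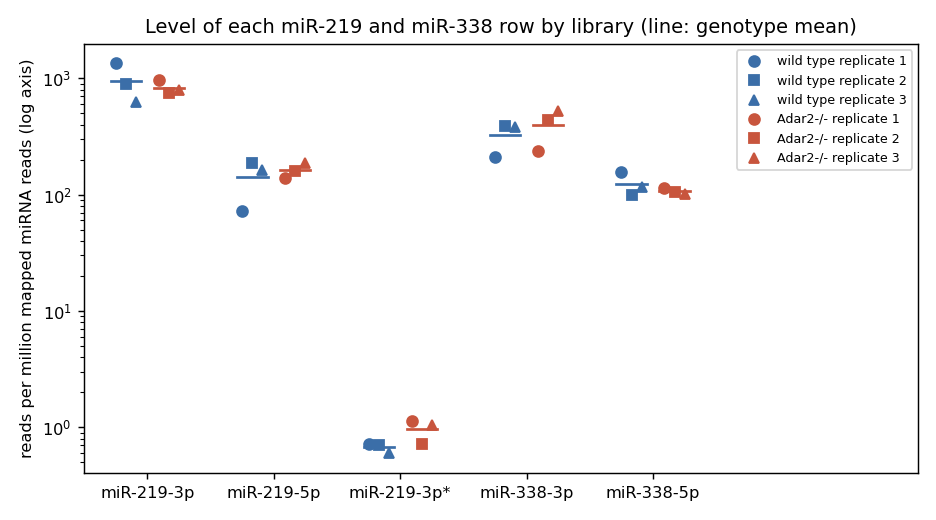
Level of each of the 5 rows in each library in RPM (log axis), with wild type in blue, Adar2-/- in red, marker shape for the replicate number and a line for the genotype mean. The rows span from below 1 RPM for miR-219-3p* to 1342 RPM for miR-219-3p, and wild-type replicate 1 is the lowest point for miR-219-5p and miR-338-3p and the highest for miR-219-3p and miR-338-5p.

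Levels of different rows were compared per read, since mature miRNAs are of nearly one length (21 and 22 nucleotides for those shown). Adapter ligation differs between small RNA sequences and was not measured, so the order of rows is an order of reads. On that scale miR-219-3p exceeded miR-338-3p in every library, by 1.53 to 6.37 reads to 1, while the next neighbours, miR-219-5p and miR-338-5p, changed places between libraries.

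The genotype comparison asked whether loss of ADAR2 changes the abundance of these miRNAs. None of the 4 tested members passed edgeR's quasi-likelihood test at an adjusted p of 0.05, and 0 had an unadjusted p under 0.05. Over all 399 rows tested, 0% passed the adjusted threshold and 3.26% had an unadjusted p under 0.05. DESeq2 called 1 row of 399 and 0 members.

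For miR-219-3p the mean was 953 ± 361 RPM in wild type and 833 ± 115 RPM in Adar2-/- (SD, n = 3 each). The log2 fold change of Adar2-/- against wild type was -0.19 ± 0.36 (SE), with a 95% interval from -0.99 to 0.61 (edgeR, Benjamini-Hochberg adjusted p = 0.989). For miR-219-5p the means were 141 ± 59.7 and 162 ± 25.3 RPM, with a log2 fold change of 0.20 ± 0.38 and an interval from -0.64 to 1.05 (edgeR, adjusted p = 0.989). Both directions rest on wild-type replicate 1. Without it the log2 fold change was 0.14 for miR-219-3p and -0.11 for miR-219-5p.

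For miR-338-3p the means were 328 ± 101 RPM in wild type and 399 ± 146 RPM in Adar2-/-, a log2 fold change of 0.28 ± 0.40 with an interval from -0.60 to 1.17 (edgeR, adjusted p = 0.988). For miR-338-5p they were 125 ± 29.0 and 107 ± 7.15 RPM, a log2 fold change of -0.22 ± 0.31 with an interval from -0.90 to 0.46 (edgeR, adjusted p = 0.988). The difference of means of miR-338-3p was smaller than the SD of either genotype. That of miR-338-5p was smaller than the wild-type SD but larger than the Adar2-/- SD. Changes within these intervals, down to -0.99 for miR-219-3p and up to 1.17 for miR-338-3p, were not excluded with 3 libraries per genotype. The log2 fold change of miR-338-3p was 0.05 without wild-type replicate 1 or Adar2-/- replicate 3 and 0.55 without Adar2-/- replicate 1, and that of miR-338-5p ranged from -0.35 to -0.02 over left-out libraries.

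The 4 members split evenly, 2 higher and 2 lower in Adar2-/-, with a median log2 fold change of 0.01 against 0.00 over all 399 rows. The replicates are separate siblings, each with its own library, so p-values measure the spread between these libraries. Spread between brains cannot be told apart from that of dissection and library preparation.

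**Figure D2:**
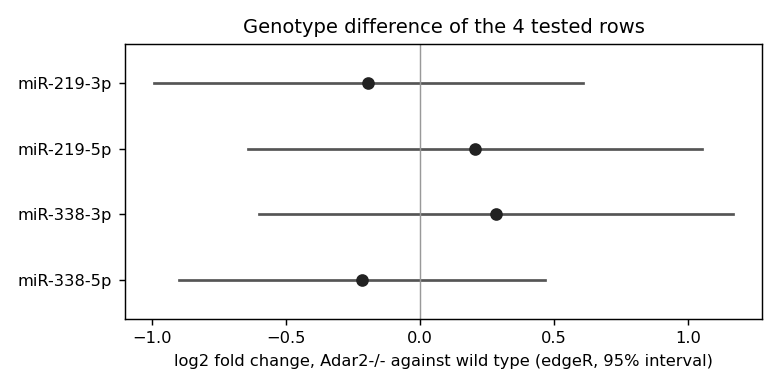
Log2 fold change of Adar2-/- against wild type for the 4 tested rows, with points for the edgeR estimate over 3 libraries per genotype and lines for its 95% interval. All 4 intervals cross 0, and the points for miR-219-3p and miR-219-5p change side when wild-type replicate 1 is left out.

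Changes with one direction in all 3 replicate numbers and a size of at least 1.3-fold were also counted, after the study's criteria of direction and size. The p criterion that the study adds in listing its miRNAs was not applied. Of the 4 members, 1, miR-338-3p, kept one direction on plain totals, with Adar2-/- to wild-type ratios of 1.12, 1.14 and 1.35 in replicates 1, 2 and 3. The TMM factors were 0.890 for wild-type replicate 2 and 1.04 for Adar2-/- replicate 2. With them the replicate 2 direction of miR-338-3p turned. It also turned, by a small margin, with totals without the 5 most abundant rows. On plain totals the ratio of means of miR-338-3p was 1.22, so 0 members met both criteria. Over all rows tested, 16% kept one direction and 9.77% also reached 1.3-fold. The count moved to 1 when a replicate number was dropped, to miR-219-5p without replicate 2 and to miR-219-3p without replicate 3. In 0 of the 4 members did the genotypes fail to overlap, against 5.76% of the rows tested.

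Summed over the 5 rows, the level was 1783, 1564 and 1293 RPM in wild type and 1454, 1450 and 1603 RPM in Adar2-/-. The genotypes overlapped, at 1547 ± 245 and 1502 ± 87.4 RPM (SD, n = 3; two-sided exact permutation test, p = 0.8). Without wild-type replicate 1 the difference changed from -44.2 to 74.0 RPM. The members thus took from 0.129% (95% Wilson interval 0.128 to 0.131) to 0.178% (0.176 to 0.181) of mapped miRNA reads, intervals that cover counting error only, since reads after PCR are not independent molecules.

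Ratios within a library do not depend on scaling. The share of miR-219-5p in the reads of miR-219-5p and miR-219-3p was 5.16%, 17.3% and 20.6% in wild type and 12.6%, 17.6% and 19.2% in Adar2-/-. The share of miR-338-3p in the reads of both miR-338 arms was 57.4%, 79.5% and 76.7% in wild type and 67.4%, 80.6% and 83.8% in Adar2-/-. Replicate 1 was lowest in both genotypes for both shares, and wild-type replicate 1 was lowest of all. The column names of both replicate 1 libraries carry other tags (s7 and s8) than those of replicates 2 and 3 (s1 and s2). What these tags stand for is not given in the sources used here, and their part in the replicate 1 values was not tested.

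As log2 ratios, miR-219-5p to miR-219-3p averaged -2.80 ± 1.22 in wild type and -2.37 ± 0.38 in Adar2-/- (SD, n = 3; two-sided exact permutation test, p = 0.8). The log2 ratio of miR-338-5p to miR-338-3p averaged -1.37 ± 0.82 and -1.82 ± 0.69 (SD, n = 3; two-sided exact permutation test, p = 0.5). Without wild-type replicate 1 the differences between genotypes turned from 0.44 to -0.26 for miR-219 and from -0.46 to 0.01 for miR-338. The ratio of the most read rows, miR-219-3p to miR-338-3p, gave the same picture, with log2 means of 1.53 ± 1.02 and 1.13 ± 0.78 (SD, n = 3; two-sided exact permutation test, p = 0.6) and a difference of -0.40 that became 0.18 without that library.

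**Figure D3:**
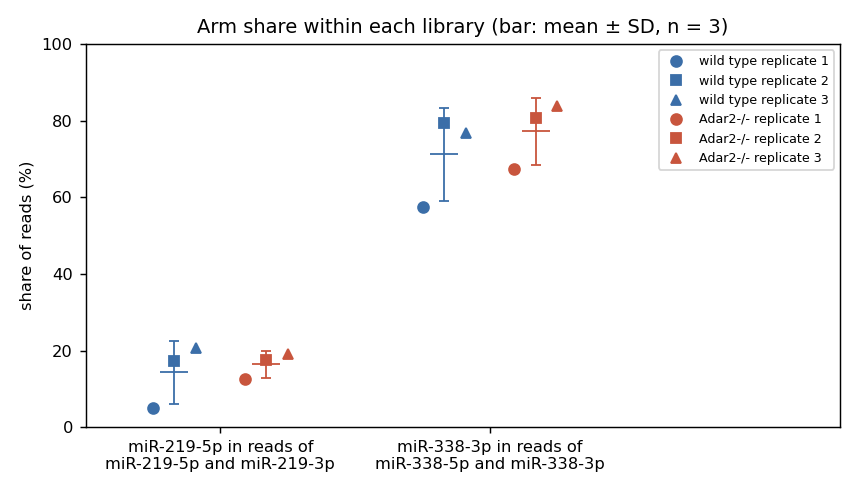
Share of reads in each library taken by miR-219-5p among miR-219-5p and miR-219-3p, and by miR-338-3p among both miR-338 arms, in percent, with the mean and SD of 3 libraries per genotype. Wild-type replicate 1 is lowest for both shares at 5.16% and 57.4%, and replicate 1 is the lowest point within each genotype.

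The planned correlation was that of the most read rows, miR-219-3p and miR-338-3p, and it was negative (r = -0.78). Pairs with miR-219-5p were taken up after the data were seen. In these, r was positive for miR-219-5p with miR-338-3p and negative for miR-219-5p with miR-338-5p. Over the 6 libraries log2 RPM of miR-219-5p and miR-338-3p had Pearson's r = 0.83 (exact permutation p = 0.00972, adjusted over 6 pairs 0.0333) and Spearman's rho = 0.83 (exact permutation p = 0.0583, adjusted 0.206). Leaving out the 2 libraries farthest from the median of miR-219-5p gave r = 0.71, and leaving out wild-type replicate 1 gave 0.81. Each of these checks kept Adar2-/- replicate 1. Both miR-219-5p (73.0 and 139 RPM) and miR-338-3p (211 and 237 RPM) were lowest in the replicate 1 libraries of the genotypes. In replicates 2 and 3 miR-219-5p stood at 186 and 163 RPM in wild type and 158 and 189 RPM in Adar2-/-. There miR-338-3p stood at 387, 385, 441 and 519 RPM in the same order. The positive r thus rests in part on the replicate 1 libraries, and r without them was not computed. The arms miR-219-5p and miR-338-3p both start with U and come from different chromosomes, and whether these traits bear on r was not tested.

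Against miR-219-5p, the arm miR-338-5p had r = -0.97 (exact permutation p = 0.0111, adjusted 0.0333) and rho = -0.77 (exact permutation p = 0.103, adjusted 0.206). Without the 2 farthest libraries r was -0.72, and without wild-type replicate 1 it was -0.80. The 2 arms of miR-338 themselves had r = -0.80 (exact permutation p = 0.0375, adjusted 0.075) and rho = -0.77 (exact permutation p = 0.103, adjusted 0.206). That value fell to -0.48 without the 2 farthest libraries, so it rests in part on them.

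The relation of the most read rows, miR-219-3p and miR-338-3p, was also negative, with r = -0.78 (exact permutation p = 0.0611, adjusted 0.0817) and rho = -0.60 (exact permutation p = 0.242, adjusted 0.357). It was -0.53 without wild-type replicate 1 and -0.88 without wild-type replicate 3 (exact permutation p = 0.025). The same-number rows miR-219-3p and miR-219-5p had r = -0.81 (exact permutation p = 0.0681, adjusted 0.0817) and rho = -0.54 (exact permutation p = 0.297, adjusted 0.357), which fell to -0.17 without wild-type replicate 1. The remaining pair, miR-219-3p and miR-338-5p, had r = 0.68 (exact permutation p = 0.168) and rho = 0.20. Rows of one library share its total, and 3 libraries per genotype are too few for a value within a genotype.

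**Figure D4:**
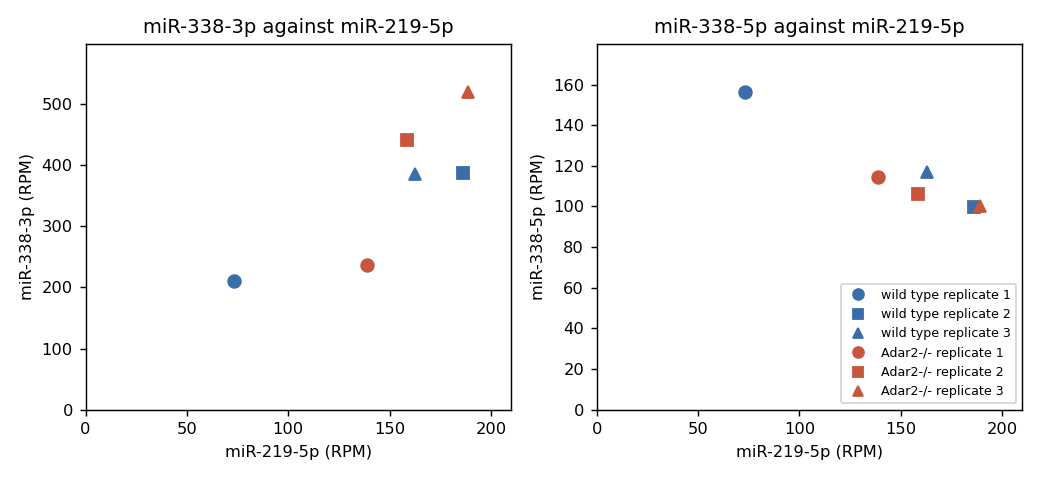
Level in RPM of miR-338-3p (left) and miR-338-5p (right) against miR-219-5p in each of the 6 libraries, with both axes from 0. miR-338-3p is lowest in the replicate 1 libraries, at 211 and 237 RPM, where miR-219-5p is also lowest. miR-338-5p goes from 156 RPM in wild-type replicate 1, with miR-219-5p at 73.0 RPM, to about 100 RPM at the highest miR-219-5p levels.

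Over all 6 libraries, few other miRNAs had arms with an r at or below the values of the members. Without wild-type replicate 1 the members' own r was -0.17 for miR-219 and -0.62 for miR-338. The other hairpins were not recomputed without it. Both arms were among the tested rows for miR-219, miR-338 and 100 other hairpin names, and the 100 besides miR-219 and miR-338 had a median r of 0.17 between arms. Of those 100, 41 had a negative r and 4 lay at or below the miR-338 value of -0.80, namely miR-132, miR-30d, miR-425 and miR-676. Next above that cut were miR-181c at -0.78 and miR-30e at -0.76 (all named after their values were seen). The log2 arm ratio ranged over 2.25 units across libraries for miR-219 and 1.94 units for miR-338, against a median of 1.61 units for the others, of which 31 reached 1.94 or more. These values are a description, since arms of one hairpin share a library and hairpins are not independent.

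**Figure D5:**
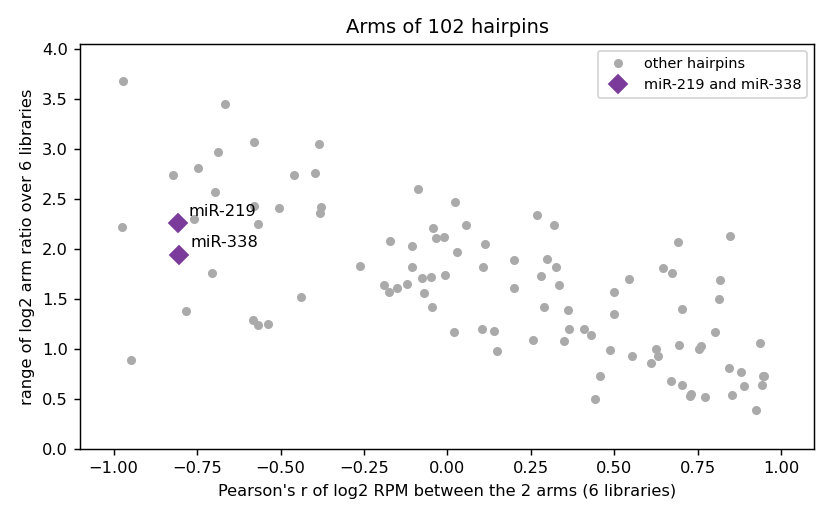
Each point is a hairpin name with both arms tested (miR-219, miR-338 and 100 others), placed by Pearson's r of log2 RPM between its arms over 6 libraries and by the range of its log2 arm ratio over those libraries. miR-219 and miR-338 (purple) lie at r of -0.81 and -0.80, where 4 of the 100 others are found at or below -0.80. Their ranges of 2.25 and 1.94 lie above the median of 1.61 of the others, of which 31 reached 1.94 or more.

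The size of the variation between libraries was ordinary for 3 of the rows. The SD of log2 RPM over the 6 libraries was 0.51 for miR-219-5p, 0.51 for miR-338-3p and 0.38 for miR-219-3p, against a median of 0.45 over all tested rows. For miR-338-5p it was 0.24, at percentile 10.8 of the tested rows.

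Other miRNAs with known roles in the oligodendrocyte lineage were also compared between genotypes. The list held miR-138, miR-23a, miR-32, miR-17, miR-19b and miR-7a, of which miR-7a is also on the pituitary list. Here 0 of 6 passed the adjusted or the unadjusted threshold, with 4 higher and 2 lower. Their median log2 fold change was 0.03 against 0.00 over all rows. The most abundant, miR-138, known to favour the early phase of oligodendrocyte differentiation, ranged from 6872 to 24178 RPM with a log2 fold change of 0.05 ± 0.46 (SE). Wild-type replicate 1 was the lowest library for miR-138 and miR-19b, the highest for miR-17 and neither for miR-23a, miR-32 and miR-7a. For miR-23a, which lowers lamin B1 and favours myelin gene expression, levels were 257 to 701 RPM with a log2 fold change of 0.24 ± 0.42 (SE).

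The neuronal list served to set the members against another cell type of the same libraries. Its 5 miRNAs were miR-124, miR-128, miR-137, miR-153 and miR-218, and they summed to between 19315 and 26022 RPM in wild type and between 21059 and 39312 RPM in Adar2-/-. Of the 5, 0 passed the adjusted or the unadjusted threshold, with 4 higher and 1 lower and a median log2 fold change of 0.56. The highest sum was in Adar2-/- replicate 3, where miR-124, the most abundant neuronal miRNA, stood at 25453 RPM against 7203 to 14998 RPM in the other libraries.

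The log2 ratio of the summed members to the neuronal list was -3.69, -4.06 and -3.90 in wild type and -3.86, -4.26 and -4.62 in Adar2-/-. Adar2-/- replicates 2 and 3 lay below every wild-type library and replicate 1 did not. The means were -3.88 ± 0.19 and -4.24 ± 0.38 (SD, n = 3), a difference of -0.36 that missed the threshold (two-sided exact permutation test, p = 0.3). Against miR-124 alone the difference was -0.57, and without miR-124 it was -0.17.

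Among the tested miRNAs outside the lists, those whose log2 RPM followed miR-338-3p most closely over the 6 libraries were miR-361 (r = 0.98), miR-362-3p (0.98), miR-101b (0.96), miR-151-5p (0.96) and miR-344 (0.96). Without wild-type replicate 1 these values stayed between 0.93 and 0.98. The closest to miR-219-3p were miR-324-3p (r = 0.95), miR-874 (0.89), miR-425* (0.87), miR-2137 (0.86) and miR-30d* (0.85). Without wild-type replicate 1 they ranged from 0.42 for miR-30d* to 0.98 for miR-425*. The 5 were picked as the highest of the rows tested, so their size is a description.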

How the data were processed

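Size-selected small RNA from whole brain was sequenced in 1 lane per library (read length 36 bases). The authors removed adapters with Cutadapt, mapped reads to mature miRNAs of miRBase release 16 with NextGenMap above a minimum identity, dropped hits to the opposite strand and shared out by weight those reads that matched more than 1 miRNA equally well. The deposited values are raw read counts per miRNA in 3 tables of 1 wild-type and 1 Adar2-/- library each, and how weights became whole numbers is not given in the sources used here. The labels name mm9 as genome build.

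From the counts, 12 blank lines were dropped, library size was the total of all 1055 rows, and no scaling factor was used. Rows with at least 100 reads in every library (399) were tested with edgeR 4.0.16 (quasi-likelihood, no covariate, Benjamini-Hochberg over all 399), under R 4.3.3. DESeq2 1.42.0, TMM, totals without the 5 most abundant rows, other filters, a replicate block and left-out libraries were alternatives. Values with 1 number per library were set against each other with exact permutation, two-sided (scipy 1.17.1). The count test was tested on simulated data.

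The members and lists were chosen with earlier results of these data known. Named were all members, up to 4 of each list with values and the 5 tested miRNAs most correlated with the most read row of each number. Mature and hairpin sequences came from RefSeq (table of GRCm38.p6, 3 of 5 members matched by name) and were located in NCBIM37. Sequence changes by editing were not analysed here. The paper lists a site in miR-219-3p among those with a higher editing level in Adar2-/- brains.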

Additional observations from a re-analysis of the deposited data

How the results depend on the processing

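The count of members called stayed at 0 under all 16 alternatives, and adjusted p-values of single members ran from 0.574 to 0.999. Leaving out wild-type replicate 1 turned the log2 fold changes of miR-219-3p to 0.14 and miR-219-5p to -0.11, the summed difference to 74.0 RPM, the arm ratio differences to -0.26 (miR-219) and 0.012 (miR-338), and that of miR-219-3p to miR-338-3p to 0.18. Without both replicate 1 libraries miR-219-3p gave 0.02 and miR-219-5p -0.01, while the median of all rows moved to 0.17 and 18 rows, 0 of them members, were called. Over left-out libraries the log2 fold changes of miR-219-3p ranged from -0.42 to 0.14 and of miR-219-5p from -0.11 to 0.47, and the other differences from -0.26 to 0.86 (miR-219 arms), -0.85 to 0.012 (miR-338 arms), -0.84 to 0.18 (most read rows), -0.56 to -0.18 (members to neuronal list) and -171 to 74.0 RPM (sum), the correlation of the most read rows from -0.88 to -0.53, and the members meeting the direction and size criteria from 0 to 1. Totals without the 5 most abundant rows gave that correlation as -0.84 (exact permutation p = 0.025). With miR-219-5p as the row of its number, chosen after seeing the data, the correlation was 0.83 and the ratio difference 0.041. Taken over all tested rows, same-numbered libraries did not deviate together (r = -0.00, -0.08 and -0.01), and the main test did not pair them. Such an r over all rows cannot show whether some rows share an effect of the replicate number. With a replicate block the log2 fold changes were -0.13 (miR-219-3p), 0.30 (miR-219-5p), 0.26 (miR-338-3p) and -0.19 (miR-338-5p), with 0 members called. The paired permutation p was 0.75 for the sum and the miR-219 arms and 0.25, the smallest that 3 pairs allow, for the miR-338 arms, for miR-219-3p to miR-338-3p and for the members to the neuronal list. The causes were not tested. Depth limits miR-219-3p*, with 9 to 25 reads a library.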
